A study of Homo sapiens with 10 samples.

Results

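The NODAL and LEFTY signalling genes are 10 genes, chosen by name from the 31017 genes of the RNA-seq count table: the ligands NODAL and GDF3, the co-receptor TDGF1, the receptors ACVR1B, ACVR2A and ACVR2B, the transcription factor FOXH1, and the inhibitors LEFTY1, LEFTY2 and CER1. All 10 were found in the table. Their promoters were taken as the captured HindIII restriction fragments, called baits, that hold the outermost annotated start of each gene, and 10 of the 21833 baits in the interaction lists were chosen in this way. The study compared human embryonic stem cells (ESCs) of the established line H9, grown in Pluripro medium and matrix, with neuroectodermal cells (NECs) derived from the same line and harvested on day 7 of differentiation. Each cell type had 2 RNA-seq libraries and 2 Promoter Capture Hi-C (PCHi-C) libraries, which the labels call biological replicates. In PCHi-C, DNA fragments that lay near each other in fixed nuclei are ligated, and ligation products that contain a promoter are captured and sequenced. A fragment called as contacting a bait is a promoter-interacting region (PIR). Both cell types come from 1 line, so the values describe that line.

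NODAL is a secreted signal of the TGF-beta superfamily. It is held by a co-receptor of the EGF-CFC class, to which TDGF1 (also called CRIPTO) belongs, on a complex of type I and type II activin receptors, and the complex phosphorylates SMAD2 and SMAD3. Phosphorylated SMADs enter the nucleus with SMAD4 and act on target genes together with DNA-binding partners, among them FOXH1. The LEFTY proteins and CER1 are secreted antagonists, and NODAL, LEFTY1 and LEFTY2 are themselves targets of the pathway. In human ESCs the activin and NODAL branch is known for maintaining pluripotency, and its inhibition favours neuroectoderm.

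The RNA-seq libraries held between 19234087 and 25356382 counted reads. Of 10 pluripotency markers, 9 were lower and 0 higher in NECs, with a summed level of 6060 and 6451 CPM (counts scaled by library size) in ESCs and of 1087 and 1668 in NEC replicates 1 and 2. Of 10 neuroectoderm markers, 9 were higher and 0 lower. Among 10 endoderm markers, 5 were higher and 3 lower in NECs. The 2 ESC libraries were sequenced in 1 lane and the 2 NEC libraries in another, so lane and cell type cannot be told apart. In these bulk samples, fewer cells that express a gene and less RNA per cell cannot be told apart either.

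The promoters of NODAL, GDF3 and CER1 are printed because each holds a HindIII site or a match to a FOXH1 motif. Each window of 300 bases runs from 250 bases before to 50 bases after a RefSeq start, 5′ to 3′ on the gene's strand. The windows come from RefSeq on GRCh38.p14, and each was found exactly once in GRCh37, the build of the interaction lists and of all coordinates given here. Capitals mark a HindIII site, AAGCTT, or a match to the FOXH1 motif AATNCACA. The windows lie at chr10:72201388-72201687 for NODAL, at chr12:7848322-7848621 for GDF3 and at chr9:14722682-14722981 for CER1, all on the minus strand.
NODAL: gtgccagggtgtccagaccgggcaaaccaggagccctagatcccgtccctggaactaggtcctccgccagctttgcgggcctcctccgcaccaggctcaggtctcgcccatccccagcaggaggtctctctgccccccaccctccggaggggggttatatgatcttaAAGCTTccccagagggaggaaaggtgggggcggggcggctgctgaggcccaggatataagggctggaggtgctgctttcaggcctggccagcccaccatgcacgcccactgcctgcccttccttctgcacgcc
GDF3: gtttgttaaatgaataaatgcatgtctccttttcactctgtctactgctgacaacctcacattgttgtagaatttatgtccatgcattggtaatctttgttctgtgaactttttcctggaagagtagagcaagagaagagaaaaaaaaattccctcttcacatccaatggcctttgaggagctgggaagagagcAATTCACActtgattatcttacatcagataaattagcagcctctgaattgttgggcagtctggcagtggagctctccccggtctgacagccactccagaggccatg
CER1: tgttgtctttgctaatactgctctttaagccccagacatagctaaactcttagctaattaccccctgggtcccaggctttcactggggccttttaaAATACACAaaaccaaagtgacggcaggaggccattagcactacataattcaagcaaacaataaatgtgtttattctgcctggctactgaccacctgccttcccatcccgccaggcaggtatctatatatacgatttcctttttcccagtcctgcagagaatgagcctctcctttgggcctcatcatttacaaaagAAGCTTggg

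The HindIII site lay 83 bases before the start in the NODAL window and 42 bases after it in the CER1 window. It occurs in 5.84% of the 35116 promoter windows in the RefSeq table. The motif AATNCACA, searched on both strands, was found at -56 in GDF3 and at -154 in CER1, and 3.31% of all windows hold it. The shorter SMAD motif CAGAC, also searched on both strands, was found in the NODAL, GDF3 and CER1 windows and in windows of ACVR1B and ACVR2A, and 45.3% of all windows hold it. Windows for ACVR1B, ACVR2A and ACVR2B were searched as well and held neither the HindIII site nor AATNCACA. LEFTY1, LEFTY2, TDGF1 and FOXH1 are not covered here, so nothing is said about motifs in their promoters. These matches describe letters in the window and are not measured binding sites.

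Expression of 7 of the 10 genes was lower in NECs than in ESCs, that of none was higher, and the 3 receptor genes were not called. The call required an adjusted p under 0.05 by edgeR's quasi-likelihood test with Benjamini-Hochberg adjustment over 17564 tested genes and a log2 fold change beyond 1.5 in size. By this rule 9.68% of all tested genes were lower and 11.4% were higher in NECs. The median log2 fold change, NECs minus ESCs, was -6.05 over the 10 genes and 0.014 over all tested genes. By adjusted p alone, 1 of the 10 genes was higher in NECs, a criterion that 31.5% of all tested genes met. The 7 genes were called lower again without any 1 of the 4 libraries.

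The ligand NODAL (ENSG00000156574, chr10:72192071-72207707, minus strand) had 1300 and 3995 reads in the ESC libraries and 13 and 8 in the NEC libraries, or 68.9, 162, 0.608 and 0.324 CPM. The groups were far apart, although the 2 ESC libraries themselves differed by 2.35-fold. The fitted log2 fold change was -7.96 (SE 0.60, edgeR adjusted p = 1.31e-04), a level 249.6-fold lower in NECs. It ran from -7.22 without ESC replicate 2 to -8.47 without ESC replicate 1. GDF3 (ENSG00000184344, chr12:7842378-7848372, minus strand), a related ligand that also uses the co-receptor, had 265, 864, 3 and 5 reads in the same order of libraries. Its log2 fold change was -7.10 (SE 0.65, edgeR adjusted p = 2.66e-04), and it moved to -6.30 without ESC replicate 2. As for NODAL, the ESC libraries differed, by 2.49-fold in CPM, and neither came near the NEC libraries.

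TDGF1 (ENSG00000241186, chr3:46616045-46668033, plus strand) was the most abundant of the 10 genes in ESCs, with 545 and 644 CPM. It had 10287 and 15913 reads in ESCs and 39 and 274 in NECs. Here it was the NEC libraries that disagreed, at 1.83 and 11.1 CPM, a ratio of 6.09. The log2 fold change was -6.49 (SE 0.66, edgeR adjusted p = 3.77e-04), -8.35 without NEC replicate 2 and -5.74 without NEC replicate 1. NEC replicate 2 also had the higher summed level of pluripotency markers given above, and the part of this in the TDGF1 level was not tested. The gene overlaps LRRC2 on the other strand by 5545 bp, and the reads were counted without regard to strand, so reads of the overlap cannot be told apart.

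The receptor genes behaved differently from the rest. ACVR1B (ENSG00000135503, chr12:52345451-52390862), the type I receptor also known as ALK4, had 43.1 and 37.9 CPM in ESCs and 65.4 and 58.7 CPM in NECs. The NEC libraries were both above the ESC libraries, by 1.53-fold (log2 fold change 0.62, SE 0.11, edgeR adjusted p = 3.38e-03), which is below the fold threshold. ACVR2A (ENSG00000121989, chr2:148602086-148688393), a type II receptor, had 16.2, 14.9, 15.02 and 15.6 CPM, and the groups overlapped. ACVR2B (ENSG00000114739, chr3:38495342-38524948), the other type II receptor, had 26.2, 20.4, 24.1 and 24.0 CPM, again with overlap. Their log2 fold changes were -0.018 (SE 0.13) and 0.044 (SE 0.15), with edgeR adjusted p values of 0.914 and 0.808. The sign of these small values changed with the setting: ACVR2A was at 0.043 with scaling by library size alone, at 0.017 without ESC replicate 1 and at 0.016 without NEC replicate 1, and ACVR2B was at -0.13 without ESC replicate 2.

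FOXH1 (ENSG00000160973), the forkhead factor that brings SMAD complexes to DNA, had 71.1 and 78.6 CPM in ESCs and 8.05 and 11.6 CPM in NECs. The groups did not overlap and the libraries within each were close. The log2 fold change, -2.92 with a SE of 0.18 and an adjusted p of 6.69e-05 by edgeR, was the smallest among the 7 genes called lower, and in NECs FOXH1 kept 172 and 287 reads. KIFC2, on the other strand, overlaps FOXH1 by 791 bp and had 566 and 845 reads in ESCs and 381 and 438 in NECs. Without strand, reads of this overlap cannot be told apart.

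The inhibitors LEFTY1 and LEFTY2 showed the greatest change of the 10 genes. LEFTY1 (ENSG00000243709, chr1:226073982-226099082, minus strand) had 7219 and 8920 reads in ESCs and 3 and 10 in NECs, or 382, 361, 0.140 and 0.405 CPM. LEFTY2 (ENSG00000143768, chr1:226124298-226129189, minus strand), its neighbour and close relative, had 4532 and 6198 reads in ESCs and 8 and 11 in NECs. In both genes the 2 ESC libraries lay close together, with CPM ratios of 0.943 and 1.04, unlike NODAL. The log2 fold change was -10.34 (SE 0.23, edgeR adjusted p = 5.87e-06) for LEFTY1 and -9.20 (SE 0.15, edgeR adjusted p = 2.82e-06) for LEFTY2. With 3 reads in NEC replicate 1, LEFTY1 moved to -11.32 without NEC replicate 2 and to -9.82 without NEC replicate 1. CER1 (ENSG00000147869, chr9:14719722-14722715, minus strand), a cystine-knot antagonist of NODAL, BMP and WNT ligands, had 1004 and 2806 reads in ESCs and 15 and 64 in NECs. The groups were apart while the libraries differed within both, by ratios of 2.13 and 3.70. Its log2 fold change was -5.62 (SE 0.56, edgeR adjusted p = 3.66e-04), -6.89 without NEC replicate 2, -5.00 without NEC replicate 1 and -4.98 without ESC replicate 2.

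**Figure D1:**
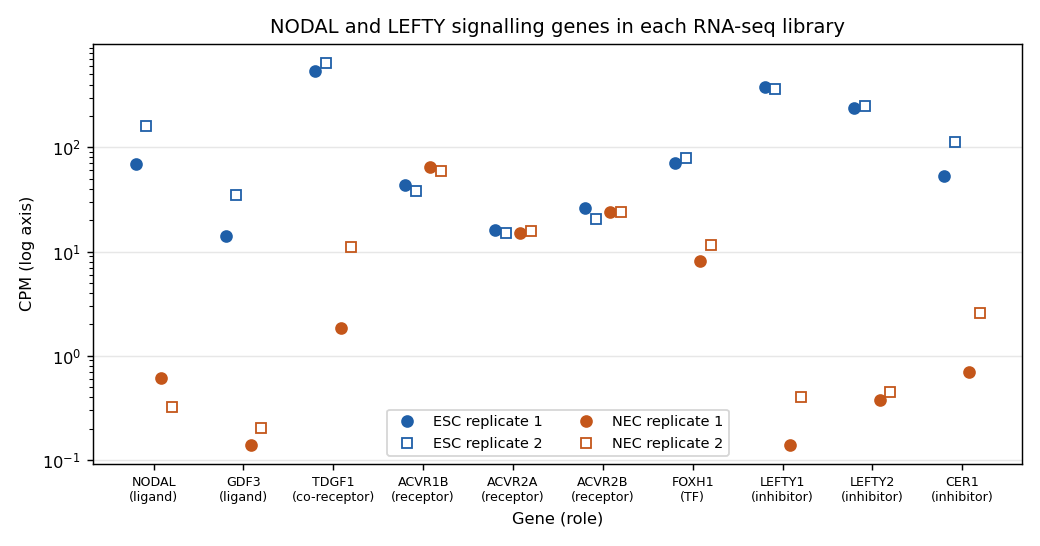
CPM (log axis) of the 10 genes in each of the 4 RNA-seq libraries; colours mark cell types and symbols mark replicates. Except for the 3 receptor genes, both ESC libraries lie well above both NEC libraries, and the ESC libraries are spread for NODAL, GDF3 and CER1.

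Levels were compared between genes as CPM per kb of annotated exon, given as mean and SD of n = 2 libraries. In ESCs the order was TDGF1 (239 ± 28.0), LEFTY1 (197 ± 8.09), LEFTY2 (107 ± 3.28), CER1 (67.7 ± 34.6), NODAL (55.2 ± 31.4), FOXH1 (37.1 ± 2.64), GDF3 (19.8 ± 11.96), ACVR1B (7.16 ± 0.653), ACVR2A (2.41 ± 0.135) and ACVR2B (1.49 ± 0.261). Both LEFTY inhibitors thus stood above the ligand NODAL, and the receptors stood lowest on this scale, which depends on the annotated exon length. In CPM without length, ACVR1B (40.5 ± 3.69) had a higher mean in ESCs than GDF3 (24.5 ± 14.8). ACVR2B (23.3 ± 4.10) and ACVR2A (15.5 ± 0.872) had lower means than GDF3. CER1 and NODAL did not differ beyond their spread, and neither did NODAL and FOXH1. In NECs the order began with ACVR1B (10.97 ± 0.841) and FOXH1 (4.88 ± 1.26) and ended with NODAL (0.224 ± 0.096), LEFTY2 (0.179 ± 0.022), LEFTY1 (0.144 ± 0.099) and GDF3 (0.139 ± 0.036). Those last 4 genes could not be ordered beyond their spread, and TDGF1 (2.60 ± 2.64) could not be placed against FOXH1 or ACVR2A.

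Of the genes without a clone-based name, those whose pattern over the 4 libraries was most like that of NODAL were GAL, MAGEB17 and LEFTY2. Their Euclidean distances were 1.46, 1.496 and 1.75 between centred log2 CPM values. The search covered 2750 such genes with a mean log2 CPM within 1 of NODAL. It left out AC022532.1, annotated inside NODAL, which had 597 and 1765 reads in ESCs and 9 and 8 in NECs. GAL, which encodes the neuropeptide galanin, had 102 and 187 CPM in ESCs and 0.468 and 1.05 CPM in NECs. With 4 libraries this likeness is a description.

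The wider pathway was described with 27 further genes, of which 24 were tested. Of these, 11 were lower in NECs, 2 were higher and 11 were not called, with a median log2 fold change of -0.57. Over all tested genes the shares were 9.68% lower and 11.4% higher. All 5 listed targets were lower: EOMES, a T-box factor of mesendoderm, by a log2 fold change of -6.20 (289, 1133, 10 and 9 reads), MIXL1 of -5.77, GSC of -2.51, FOXA2 of -2.13 and T (Brachyury) of -2.09. The calls of T and FOXA2 rested on ESC replicate 2: without it their log2 fold changes were -1.20 and -1.27 and neither was called, and T was not called without NEC replicate 2 either (-1.70). Without ESC replicate 2, EOMES was at -5.20, MIXL1 at -5.06 and GSC at -1.71, and EOMES was at -6.80 without ESC replicate 1. Among 8 tested genes that restrain the pathway, 4 were lower and 0 higher. PMEPA1, an antagonist of SMAD signalling induced by TGF-beta, had 1208 and 1333 reads in ESCs and 33 and 46 in NECs (log2 fold change -5.10). BAMBI, a pseudoreceptor, changed by -2.84, SKIL, a SMAD co-repressor, by -2.80 and SMAD7, an inhibitory SMAD, by -2.71.

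Among the transducers that the pathway shares with activin, SMAD3 stood apart. Of 4 mediators, SMAD3 was higher in NECs, with 658 and 741 reads in ESCs and 2932 and 3274 in NECs (log2 fold change 2.06), and SMAD2, SMAD4 and TRIM33 were not called, with log2 fold changes of -0.075, 0.27 and -0.34. FST, SKI and TGIF1 were the most abundant of the restraining genes that were not called, at 0.16, -0.18 and -0.64. FST, which encodes the activin-binding protein follistatin, had 7401 reads in NEC replicate 2 against 3592 in NEC replicate 1, and its value was -0.32 without NEC replicate 2.

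Among the other ligands and receptors, changes were called at low counts. INHBA, which encodes the activin A subunit, had 15 and 25 reads in ESCs and 0 and 3 in NECs. The ratio of its summed reads, scaled by the summed library sizes, was 14.1, with an exact 95% counting interval from 4.48 to 71.1. ACVR1C, which encodes the NODAL receptor ALK7, had 15, 17, 0 and 2 reads, a ratio of 16.9 (interval 4.31 to 146). INHBB was higher in NECs, with 2 and 4 reads in ESCs and 19 in each NEC library. These intervals cover counting error only. GDF1 and PCSK6, a partner ligand of NODAL and a convertase that processes it, had log2 fold changes of 1.28 and 1.39, below the fold threshold. CFC1, CFC1B and DAND5 had too few reads to be tested.

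**Figure D2:**
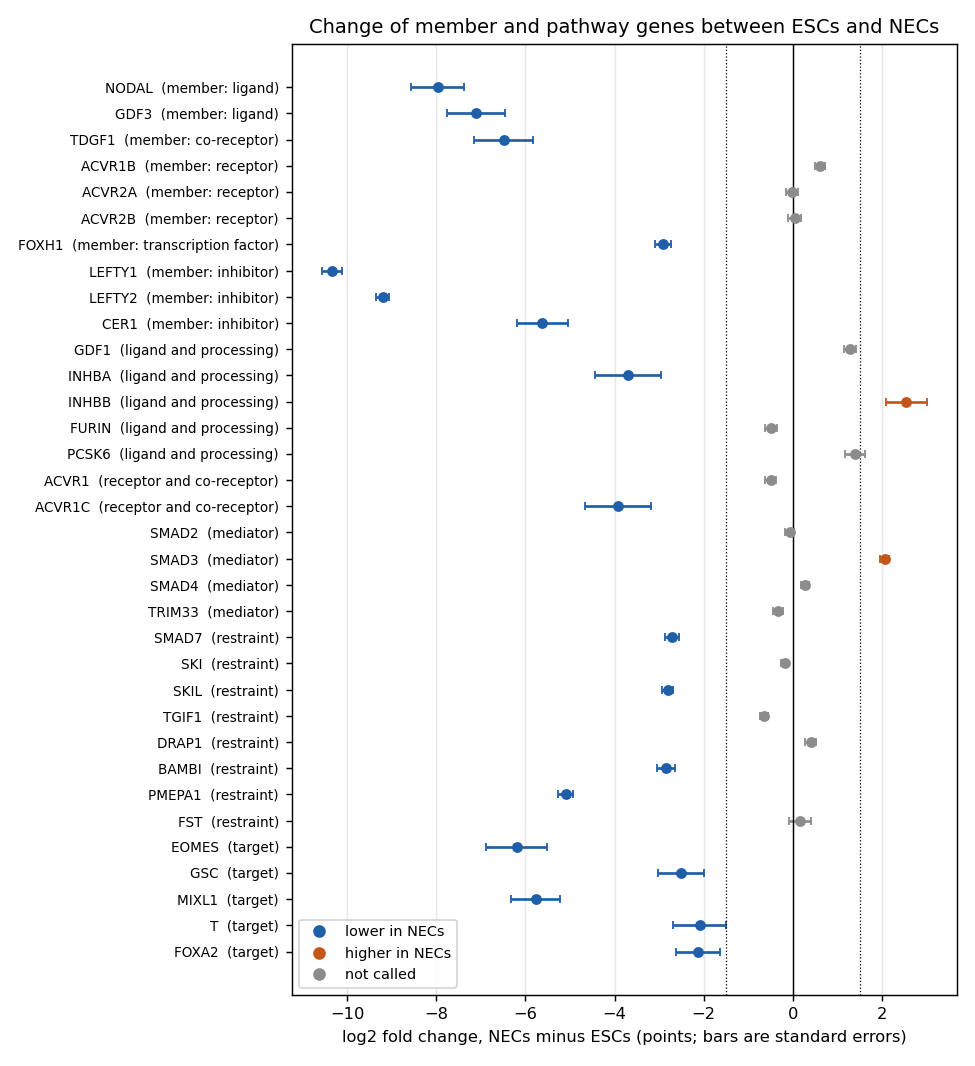
Log2 fold changes (NECs minus ESCs, points) with standard errors (bars) of the 10 genes and the 24 tested pathway genes; dotted lines mark the fold threshold of 1.5. The 10 genes and their targets reach from -10.34 to 0.62, while the SMAD mediators other than SMAD3 lie near 0.

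The ESC libraries differed in a subset of these genes. NODAL, GDF3 and CER1 were 2.35-, 2.49- and 2.13-fold higher in ESC replicate 2 than in ESC replicate 1, that is, 3 of the 10 genes were higher by over 2-fold, against 1.54% of all tested genes. The same was measured for all 5 listed targets: EOMES (2.99-fold), T (2.67-fold), FOXA2 (2.61-fold), GSC (2.47-fold) and MIXL1 (2.27-fold). By contrast, LEFTY1, LEFTY2, TDGF1, FOXH1 and the receptors lay between 0.779- and 1.18-fold. Of the 10 endoderm markers, SOX17, GATA4 and GATA6 were also over 2-fold higher in ESC replicate 2, and the summed level of the list was 26.3 and 36.8 CPM. Since this compares 1 library with 1, no test is given, and the part of cells of another type was not tested.

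**Figure D3:**
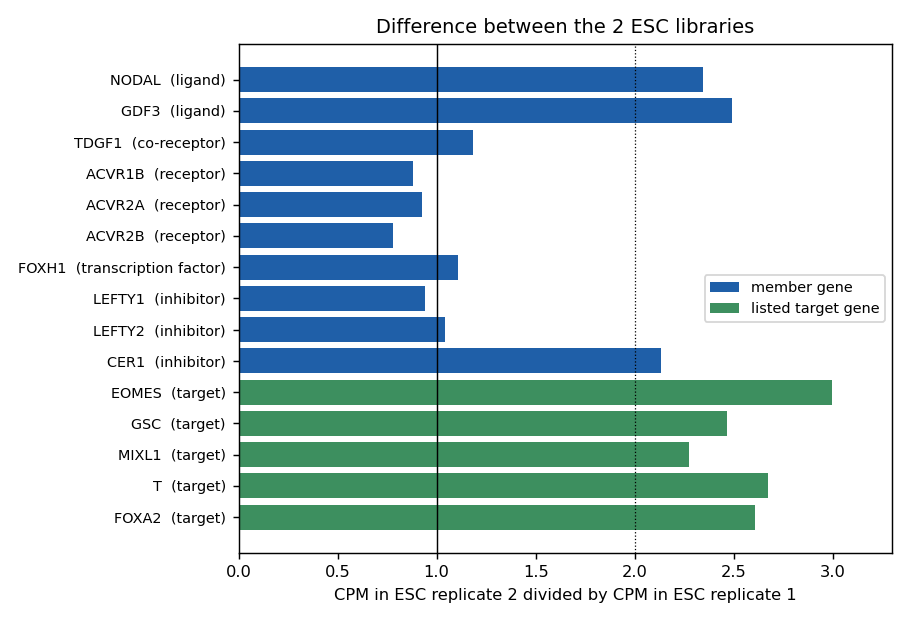
Ratio of CPM in ESC replicate 2 to CPM in ESC replicate 1 for the 10 genes and the 5 listed targets; the solid line marks equality and the dotted line a ratio of 2. NODAL, GDF3, CER1 and the 5 targets lie beyond 2, and the other genes lie between 0.779 and 1.18.

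Genes that start within 100 kb of the 10 genes were examined next. Of 45 such genes described here, 36 were tested, 8 were lower in NECs and 1 was higher, with a median log2 fold change of 0.074. By the same rule 9.68% of all tested genes were lower and 11.4% were higher. The lower genes lay near the LEFTY genes, NODAL, GDF3, TDGF1 and FOXH1. None lay near CER1 or a receptor gene, where few neighbours were tested: 1 each for CER1 and ACVR2A and 2 each for ACVR1B and ACVR2B. Around LEFTY1 and LEFTY2, 4 of these 5 neighbours were called lower, and by adjusted p alone all 5 were lower, a criterion that 29.7% of all tested genes met. TMEM63A, which encodes a mechanosensitive channel protein, had 1979 and 2656 reads in the ESC libraries against 421 and 462 in the NEC libraries, which gave a log2 fold change of -2.47 with a SE of 0.093 and an adjusted p of 1.44e-05 by edgeR. RP4-559A3.7, RP4-559A3.6 and RP11-285F7.2 were called at -3.31, -9.91 and -1.94. The span of RP4-559A3.7 overlaps LEFTY1 by 24687 bp on the same strand and that of RP4-559A3.6 overlaps LEFTY2 by 960 bp, so their reads cannot be told apart from those of the LEFTY genes. RP4-559A3.6 had 482, 670, 0 and 1 reads. Its ratio of summed reads, scaled by the summed library sizes, was 1217, with an exact counting interval from 218 to 48093. Its fitted value was -12.16 without NEC replicate 2 and -9.16 without NEC replicate 1. The annotated span of PARP1 in the table also covers both LEFTY genes.

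NANOG, a core pluripotency factor that starts 92018 bp from GDF3, had 1251 and 1889 reads in the ESC libraries against 12 and 50 in the NEC libraries, which gave a log2 fold change of -5.74 with a SE of 0.37 and an adjusted p of 7.94e-05 by edgeR. AC022532.1, annotated inside NODAL on the other strand, had 597, 1765, 9 and 8 reads, with ESC replicate 2 again the higher, and without strand the 2 genes cannot be told apart. Its log2 fold change was -7.11, and -6.40 without ESC replicate 2. Without NEC replicates 2 and 1, NANOG was at -6.98 and -5.13. LRRC2, which overlaps TDGF1, changed by -5.28 (-6.39 without NEC replicate 2) and SLC39A4, a zinc transporter gene near FOXH1, by -2.12. GRASP, near ACVR1B, was higher in NECs (log2 fold change 1.77), and it was not called without ESC replicate 2 (1.39) or without NEC replicate 1 (1.46). RP11-285F7.2 was not called without ESC replicate 2 (-1.74).

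The promoter interactions were compared next. The merged lists, which combine both replicates of a cell type, held 99302 calls in ESCs and 99181 in NECs with an interaction score of at least 12, and the lists of single replicates held between 81168 and 100305. For the 10 promoters, the merged ESC list held 68 PIRs and the merged NEC list 46, with 14 in common. This is 20.6% of the ESC PIRs and 30.4% of the NEC PIRs, against 44.2% and 44.3% over all merged calls. These baits hold the outermost annotated start of each gene. From the 8 baits that hold the start of a MANE Select transcript, the reference transcript of a gene, there were 39 PIRs in ESCs and 33 in NECs, since the MANE starts of NODAL and LEFTY1 lie on fragments that were not baits and that of TDGF1 lies on another bait. The direction of the difference between cell types depended on distance. Within 100 kb of the bait there were 41 PIRs in ESCs and 9 in NECs (single replicates: 13 and 18 against 0 and 2), and beyond 100 kb there were 27 and 37 (34 and 36 against 43 and 42). From the MANE baits there were 16 and 3 within 100 kb (6 and 9 against 0 and 2 in the replicates). Over all baits, 27.7% of merged ESC calls and 25.2% of merged NEC calls lay within 100 kb. A fragment below the score threshold is not listed, so a missing call does not show a missing contact.

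Most of the short-range PIRs belonged to LEFTY1 and LEFTY2. LEFTY1 had 17 PIRs within 100 kb in the merged ESC list and 10 and 8 in the ESC replicates, against 4 in the merged NEC list and 0 and 2 in the NEC replicates. LEFTY2 had 10 (2 and 5 in the replicates) against 2 (0 and 0). For both promoters the 2 ESC replicates lay above the 2 NEC replicates, which held for 4.17% of all baits at this distance, while the opposite order held for 2.71%. These shares include baits without a PIR within 100 kb, which cannot show either order. The first order held for 2 of the 10 promoters, and these are neighbours that share contacted fragments. With 2 against 2 lists a two-sided exact permutation test cannot go below 0.333, so no p is given for a single promoter. Beyond 100 kb the order did not hold: LEFTY1 had 7 and 10 PIRs in the ESC replicates against 11 and 11 in the NEC replicates, and LEFTY2 had 8 and 6 against 6 and 7. PIRs on adjacent fragments are not separate replicates.

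**Figure D4:**
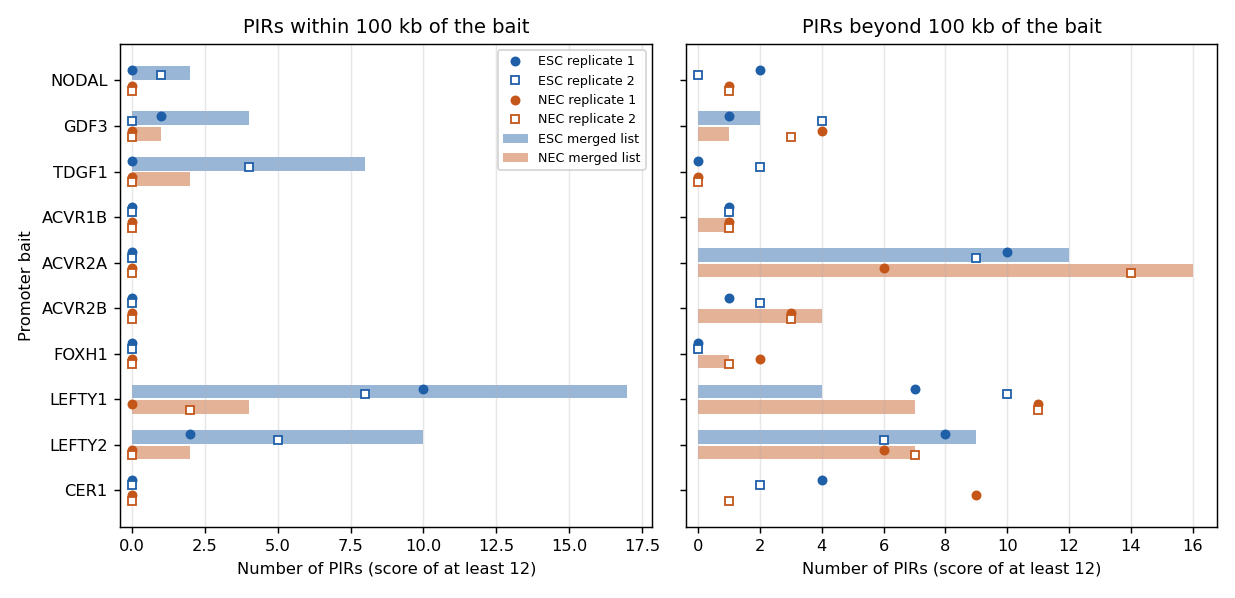
Number of PIRs of each promoter bait at a score of at least 12, within 100 kb (left) and beyond 100 kb (right) on the same chromosome; bars are merged lists and symbols are single replicates. The LEFTY1 and LEFTY2 baits have 17 and 10 short-range PIRs in the merged ESC list and 4 and 2 in the merged NEC list.

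The bait of the outermost LEFTY1 start and the LEFTY2 bait were called in contact with each other in ESCs. From the LEFTY1 bait (chr1:226098282-226100464), the fragment with the highest score was the bait that holds the LEFTY2 start (chr1:226110293-226136406), 24.0 kb away between centres. It scored 21.57 in the merged ESC list, 13.50 and 14.58 in the ESC replicates, and it was in none of the 3 NEC lists. The reverse call, from the LEFTY2 bait, scored 15.65 and was made in the merged ESC list alone. The LEFTY2 bait is 26114 bp long and also holds the starts of other genes, among them RP4-559A3.7 and RP4-559A3.6, so the call cannot be given to 1 of these genes. The next highest LEFTY1 contact in ESCs was the TMEM63A promoter fragment (chr1:226062947-226070974), at 20.18 (12.55 and 16.87 in the replicates), also absent from the NEC lists.

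Seen from the TMEM63A bait the same pair was called in both cell types. LEFTY1 scored 34.54 in the merged ESC list (20.71 and 20.11 in the replicates) and 17.77 in the merged NEC list (13.42 in NEC replicate 1, not called in NEC replicate 2). LEFTY2 scored 31.65 (22.73 and 18.37) from that bait in ESCs and 16.92 (12.11 and 14.56) in NECs. The EPHX1 bait gave the same order of merged scores, with 25.04 and 15.91 for LEFTY1 and 24.17 and 16.96 for LEFTY2, and neither was called in NEC replicate 2. Other baits gave the opposite order. From the SRP9 bait, LEFTY2 scored 14.77 in ESCs and 17.04 in NECs, and LEFTY1 was called in NECs alone (14.56). A bait without a gene start of the table, chr1:225927735-225930833, called LEFTY2 in NECs alone, at 12.84 and in both replicates. Scores depend on sequencing depth, which the lists do not give.

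LEFTY1 had 6 PIRs that were called in both ESC replicates and in neither NEC replicate. They included, besides the LEFTY2 and TMEM63A fragments, exonic fragments of TMEM63A at chr1:226038133-226046404 (merged ESC score 17.37) and chr1:226049111-226057033 (17.32), an intergenic fragment at chr1:226145453-226149180 (17.54) and an exonic fragment of LBR, the lamin B receptor gene, at chr1:225613778-225616609 (14.08). The 2 exonic TMEM63A fragments were in the merged NEC list at 13.33 and 13.50. One PIR was called in both NEC replicates only, an exonic fragment of SRP9 at chr1:225965689-225976698 with scores of 12.54 and 12.68. The highest NEC score, 17.34, belonged to an intergenic fragment at chr1:225661219-225674297, 432 kb from the bait, which was also called in ESC replicate 1 at 12.14. For LEFTY2, the fragment with the highest ESC score was chr1:226145453-226149180, at 20.46, with 13.67 in NECs. The TMEM63A fragment at chr1:226038133-226046404, at 18.67, was again called in both ESC replicates and in no NEC list.

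Of the PIRs of LEFTY2 beyond 100 kb, 4 were shared, which is 44.4% of the ESC PIRs and 57.1% of the NEC PIRs at that distance. The fragments at chr1:225613778-225616609, in an exon of LBR and 508 kb away, and at chr1:225638641-225650332, 479 kb away, were called in all 4 replicates, with merged scores of 15.94 and 15.51 in ESCs and 16.96 and 16.45 in NECs. These 2 were the only PIRs of the 10 promoters called in all 4 replicates. Counted over the 178 pairs of a promoter and a PIR in any list, 2 (1.12%) were in all 4 replicates, 7 (3.93%) in both ESC replicates alone and 3 (1.69%) in both NEC replicates alone. Over all 312601 interactions the shares were 2.50%, 2.25% and 2.16%.

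**Figure D5:**
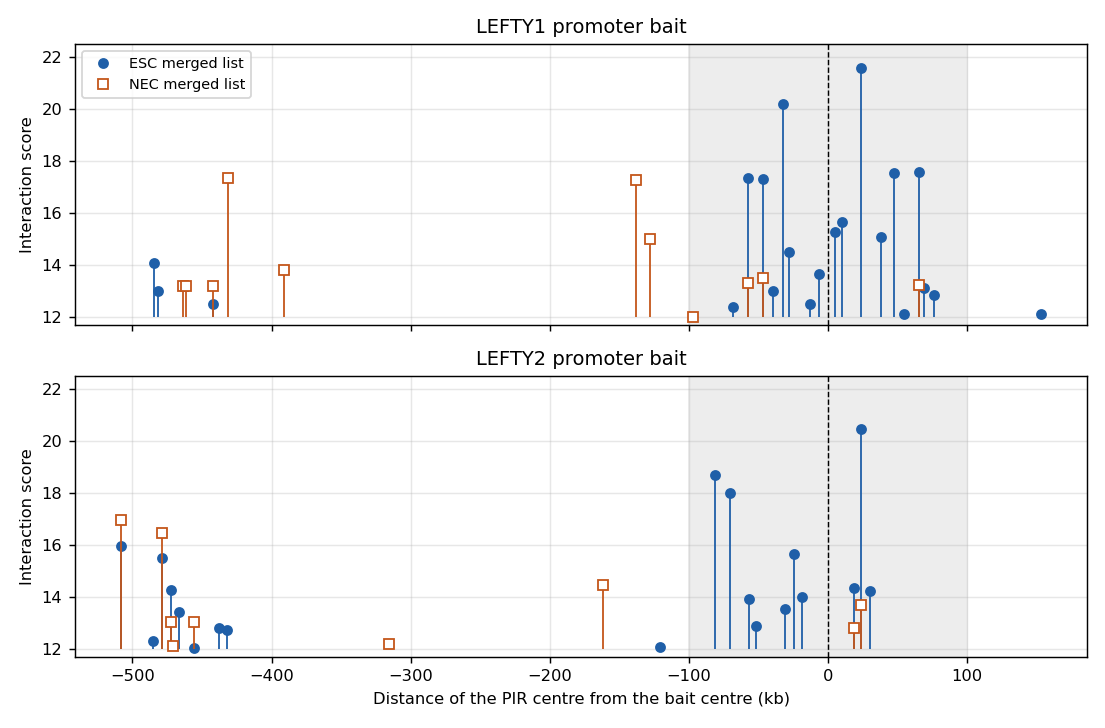
Interaction score of each PIR of the LEFTY1 and LEFTY2 baits in the merged lists against its distance from the bait in kb; the shaded band marks 100 kb on either side. Within the band ESC calls are more frequent and reach 21.57 and 20.46, whereas the far calls of LEFTY2 at 479 and 508 kb occur in both cell types.

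The NODAL promoter had few PIRs. Its bait (chr10:72206540-72208016) had 2 in the merged ESC list, an intronic NODAL fragment at chr10:72201516-72204986 (12.10) and an intergenic fragment at chr10:72214010-72219085 (13.65, and 12.19 in ESC replicate 2). It had 0 in the merged NEC list and 2, 1, 1 and 1 in the single replicates. This bait holds the outermost annotated start, 6270 bp from the start of the MANE Select transcript at chr10:72201437. The HindIII site in the printed NODAL window separates that start from the bases before it: the start lies on the fragment chr10:72196591-72201515, which was not a bait, and the upstream part lies on the intronic fragment just named. The fragment of the MANE start was itself contacted by the bait of LRRC20 (14.04 in the merged ESC list and in none of NECs), by that of AC022532.1 (14.64 in ESCs and 12.49 in NECs) and by that of PCBD1 (13.31 in ESCs).

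The choice of start also matters for LEFTY1 and TDGF1. The MANE start of LEFTY1 lies 22236 bp from the outermost start, on a fragment that was not a bait, so the LEFTY1 contacts above are those of the outermost start. From the LEFTY2 bait, the fragment of the MANE start (chr1:226072379-226080669) was called at 12.02 in ESC replicate 2 and in no other list. The TDGF1 bait (chr3:46615946-46618741) had 8 PIRs in the merged ESC list and 2 in the merged NEC list, all within 100 kb, but 0 in ESC replicate 1, 6 in ESC replicate 2 and 0 in both NEC replicates. The replicates therefore overlapped. The MANE start of TDGF1 lies 3233 bp away on another bait, chr3:46618742-46628083, which had 2 PIRs in the merged ESC list and 0 in the merged NEC list, and 3 and 6 in the ESC replicates against 2 and 4 in the NEC replicates. For the first bait, the top fragment in ESCs held the start of LTF, the lactoferrin gene, with 15.10 in ESCs and 12.22 in NECs, and the reverse call from the LTF bait scored 15.31 and 12.22. The top fragment in NECs, exonic at chr3:46656238-46670579, scored 13.04, and 13.31 in ESCs. LTF itself had 1, 6, 0 and 0 reads.

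The GDF3 bait (chr12:7843266-7848720) had 6 PIRs in the merged ESC list and 2 in the merged NEC list. The highest in ESCs was the fragment that holds the outermost NANOG start (chr12:7938639-7940391), at 14.43 with 13.25 in ESC replicate 1, and it was in no other list. That start, at chr12:7940390, is the last base but 1 of the fragment, and the MANE start of NANOG, at chr12:7941998, lies outside it. The fragment with the start of DPPA3, a germ cell and pluripotency gene, was called in both merged lists, at 13.20 and 13.41, and in no single replicate. From the bait of SLC2A3, a glucose transporter gene, the GDF3 fragment was called at 15.32 in the merged NEC list (16.08 and 13.62 in the replicates) and in ESC replicate 2 (14.05). The replicate counts of GDF3 overlapped, at 2 and 4 against 4 and 3.

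From their own baits, the receptor promoters had PIRs in the merged lists beyond 100 kb alone. For ACVR2A, 12 PIRs were listed in ESCs and 16 in NECs, all beyond 100 kb, of which 1 was shared, and its replicates overlapped (10 and 9 against 6 and 14). Its top fragment in ESCs, intergenic at chr2:148103174-148109801, scored 16.15 (12.33 and 14.65) and was called in NEC replicate 2 at 13.72. The fragment at chr2:148197526-148208300, 399 kb away and intergenic, scored 16.88 in NECs (12.43 and 14.55) and was in no ESC list. The ACVR2A promoter was also contacted from a bait at chr2:148081088-148091118 that holds no gene start of the table, 516 kb away, at 17.72 in ESCs (17.68 and 17.61) and 25.53 in NECs (21.61 and 25.65), that is, in all 4 replicates and with both NEC scores above both ESC scores. A nearer bait without a gene start, chr2:148629842-148635385 at 30.8 kb, called the ACVR2A fragment at 15.59 in ESCs (12.58 and 15.57) and at 13.65 in NECs (15.30 in NEC replicate 1 alone). ACVR2B had 0 PIRs in the merged ESC list and 4 in the merged NEC list, with 1 and 2 against 3 and 3 in the replicates. More PIRs in both NEC replicates than in either ESC replicate, at all distances, were seen for ACVR2B and FOXH1, 2 of the 10 promoters, against 13.1% of all baits, and the opposite for LEFTY1 and LEFTY2, against 12.8%. The ACVR2B fragment at chr3:39063942-39074024, in an exon of the sodium channel gene SCN11A, scored 14.45 in NECs (14.83 and 12.71) and was in no ESC list. ACVR1B had 1 PIR, in the merged NEC list, the fragment with the starts of GALNT6 and SLC4A8 (13.69, and 13.35 in NEC replicate 1). The other 3 replicates each called 1 PIR, on a different fragment each.

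FOXH1 and CER1 had few calls. The FOXH1 bait, 25846 bp long and shared with the starts of CYHR1, KIFC2 and PPP1R16A, had 0 PIRs in all 3 ESC lists, 1 in the merged NEC list, which holds the starts of BOP1 and HSF1 (12.52), and 2 in each NEC replicate. Seen from other baits, the FOXH1 fragment was called in ESCs too: from chr8:145718893-145738680, which holds the starts of GPT and MFSD3, at 15.42 in the merged ESC list (12.53 in ESC replicate 1) and in no NEC list, and from the CPSF1 bait at 13.31 in ESC replicate 2 and at 12.16 in the merged NEC list. CER1, whose HindIII site lies just after its start, had 0 PIRs in both merged lists and 4 and 2 in the ESC replicates against 9 and 1 in the NEC replicates, so that no CER1 contact was called once replicates were combined.

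Contacts between a bait and another bait with a gene start were counted last. Called from the baits of the 10 promoters, with LEFTY1 and LEFTY2 counted once in each direction, there were 10 such contacts in ESCs and 8 in NECs, of which 2 were shared, namely those of GDF3 with DPPA3 and of TDGF1 with LTF. In ESCs the others joined LEFTY1 with LEFTY2, TMEM63A and LBR, LEFTY2 with LEFTY1 and TMEM63A, GDF3 with C1RL and NECAP1, and TDGF1 with RTP3. In NECs they joined ACVR2B with VILL, with ACAA1 and MYD88, and with SLC22A14, and 1 each was found for GDF3 with FOXJ2, ACVR1B with GALNT6 and FOXH1 with BOP1. When calls from either end were taken and each pair was counted once, there were 14 pairs in ESCs and 17 in NECs, of which 7 were shared, among them those of LEFTY1 and LEFTY2 with TMEM63A, so the order of the 2 cell types depended on the end from which pairs were called.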

How the data were processed

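RNA was measured in 4 libraries and promoter interactions in 4 PCHi-C libraries of 10 samples; 2 Hi-C samples were not analysed here. The authors trimmed reads, mapped them to GRCh37 with TopHat (TopHat2 2.0.8b and Bowtie 1.0.0 in the submitters' processing notes) and deposited raw counts per gene, made without strand in SeqMonk. For PCHi-C, the authors aligned with HiCUP and deposited CHiCAGO scores of at least 12 per HindIII fragment pair, for each replicate and merged; these lists give no read depth. Counts were filtered (filterByExpr, minimum count 10), scaled by TMM and tested with edgeR 4.0.16 (R 4.3.3), glmQLFit and glmQLFTest with a prior count of 0.125, Benjamini-Hochberg adjusted. Genes with an adjusted p below 0.05 that changed by more than 1.5 on the log2 scale were called. The fit was tested on simulated data with the same dispersion (spread between replicates) for all genes. This does not show how it performs for genes whose replicates differed widely. CPM used TMM-scaled totals of 18875227 to 24721550. DESeq2 1.42.0, other scalings, no filter, a replicate block and leaving out libraries were alternatives; for PIRs, a score of at least 15, single replicates, other baits and other definitions of sharing. Gene types and MANE Select starts came from GENCODE v44lift37; 28730 of 31017 genes matched. Named genes were the 10 genes, called pathway and neighbour genes and the 5 most abundant pathway genes not called. Also named were the 3 genes most like NODAL among those without a clone-based name. Named PIRs were the top PIR per promoter and cell type and those called in both replicates of 1 cell type. PIRs holding a gene start were named as well. The genes, lists and tests were chosen with earlier results of these data known. GAL, LTF and contacts seen from other baits were described after their values were seen. Some pathway and neighbour genes are not reported here and were left out of the counts of their lists. P-values measure the spread between these libraries.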

Additional observations from a re-analysis of the deposited data

How the results depend on the processing

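The 7 genes called lower stayed called under each of the 10 alternative fits, with no gene called higher unless the fold threshold was dropped (1). Without that threshold, 15 of the 24 tested pathway genes were lower and 6 higher, and 13 of the 36 tested neighbour genes were lower and 12 higher. By this criterion 29.7% of all tested genes were lower and 31.5% were higher. Leaving out 1 library moved the median log2 fold change of the 10 genes between -7.14 and -5.37, and the count of higher neighbours between 0 and 1. Of 333 values of 37 single genes under alternatives, 322 kept their direction and call, 6 lost the call and 5 reversed: ACVR2A, at 0.043 with library size alone and from -0.082 to 0.017 (without ESC replicates 2 and 1) on leaving out libraries, where it was also positive without NEC replicate 1, ACVR2B, from -0.13 to 0.21 (without ESC replicates 2 and 1), and FST, from -0.32 to 0.52 (without NEC replicates 2 and 1). The cause was not tested. Same-numbered libraries deviated together only weakly (correlation 0.0485). With 2 libraries per cell type this cannot show whether the replicate numbers pair libraries. The replicate block called 7 genes lower with a median of -6.21. At a score of at least 15, 17 ESC and 6 NEC PIRs remained for the 10 promoters, with 2 shared, and 4 and 0 contacts with other promoters, since fewer calls remain. From the MANE Select baits, an alternative added after seeing the data, there were 39 PIRs in ESCs and 33 in NECs. Single replicates gave 47 to 54 PIRs in ESCs, 43 to 45 in NECs, 7 to 10 shared PIRs, and 5 to 8 promoter contacts in ESCs and 5 to 6 in NECs. Allowing 10 kb between PIRs, 33 ESC PIRs had a NEC partner, and counting pairs from either end (also added later) gave 24 shared PIRs, with 17 promoter pairs in NECs and 14 in ESCs. Groups of 2 libraries and lists without depth limit all these comparisons.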
